A study of Mus musculus with 4 samples.

Results

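The genes described are those of the core-binding factor and its ETO corepressors, namely the DNA-binding subunits *Runx1*, *Runx2* and *Runx3*, their common partner *Cbfb*, and the ETO family genes *Cbfa2t2*, *Cbfa2t3* and *Runx1t1*. They were chosen by symbol from the table of gene counts, and the rule uses no measured value, although the set was proposed with earlier results of these data known. Of the 7 genes, 6 had a row among the 12067 genes of the table. All 6 were kept by the filter on low counts, which removed 0 genes of the table. *Runx1t1* had no row and was not analysed here. Quant-seq libraries, in which each transcript is counted near its poly-A tail, were made from donor-derived KL cells, a bone marrow population of myeloid progenitors that were sorted as CD45.2+ and c-Kit+ but without Sca-1 or lineage markers. There were 2 libraries labelled BcorΔE9-10 and 2 labelled BcorWT. The BcorΔE9-10 donors carried the scl-Cre-ERT transgene and a floxed *Bcor* allele (Bcorfl/y), whereas the labels of the BcorWT donors give Bcorfl/y with no Cre, so both groups had the floxed allele and the presence of Cre cannot be told apart from the deletion. Cre is driven by a stem cell enhancer of *Tal1* and, once tamoxifen is given, removes exons 9 and 10 of the X-linked *Bcor* gene in haematopoietic stem cells. According to the methods all donors were treated with tamoxifen (5 mg in all, at 3 to 6 months of age), and cells were transplanted to irradiated female congenic *Ptprca* recipients. The labels give whole marrow as the graft, and KL cells were sorted 20 weeks after the transplant. The labels do not say that the 2 libraries of a genotype came from separate donors, so p-values measure the spread between these libraries only.

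RUNX proteins bind DNA through the Runt domain and can activate or repress a gene depending on the cofactors they recruit. CBFβ does not touch DNA itself but strengthens the binding of its RUNX partner. ETO proteins do not read DNA sequence either. They are brought to their sites by DNA-binding factors such as TAL1 and GFI1B, and they carry corepressors such as NCOR1 with histone deacetylases. *Runx1* and *Cbfb* are required for definitive haematopoiesis, and both are rearranged in leukaemia, where one fusion joins RUNX1 to RUNX1T1.

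Depth ranged from 3825289.5 to 6253100.5 counts per library, and 3 counts corresponded to between 0.489 and 0.876 counts per 1000000 (CPM) after scaling with edgeR's TMM factors. The libraries of a genotype were not equally alike. The correlation of log2 CPM across 12067 genes was 0.947 between the BcorΔE9-10 replicates and 0.893 between the BcorWT replicates, the lowest of the 6 pairs. *Gm42418*, an abundant transcript, took 27.9% of the counts in BcorWT replicate 1 and 1.43% in BcorWT replicate 2, against 16.3 and 14.3% in the BcorΔE9-10 libraries. All 10 of the KL progenitor markers listed were in the table, with a summed level of 8300 to 11100 CPM per library. *Mpo*, *Prtn3*, *Elane* and *Ctsg* carried most of that sum, whereas *Kit* stood at 29.4 to 61.9 CPM. All 8 mature neutrophil markers were also in the table and their sum was far higher. It was 63200 and 155000 CPM in BcorΔE9-10 and 94100 and 142000 CPM in BcorWT. The replicates of a genotype differed in this sum more than the genotypes did. *S100a8* was the highest of these markers in every library but BcorWT replicate 2, where it stood at 44100 CPM and *Ngp* at 54000 CPM. Of 8 B cell markers 4 had a row, with sums of 37.5 and 21.0 against 32.1 and 14.5 CPM, whereas *Cd79a* and *Pax5* were among those with none. Of the 14 markers of T and NK cells 9 had no row, among them *Cd3e*, *Cd3d*, *Cd3g*, *Trac* and *Trbc2*. Of the 9 osteoblast and stromal markers 8 had no row. Some lineages differed in the same direction in both replicates, although 0 of their markers passed the edgeR test. The 9 of 11 erythroid markers in the table summed to 165 and 144 CPM in BcorΔE9-10 and 42.9 and 57.4 CPM in BcorWT, with *Rhd* at 0 counts in BcorWT replicate 1. The 5 of 8 mast cell and basophil markers summed to 101 and 115 against 329 and 412 CPM, and the 5 of 6 eosinophil markers to 181 and 137 against 264 and 356 CPM. Their part in the values of the members was not tested. *Bcor* itself had 104 and 113 raw counts in BcorΔE9-10 and 58 and 79 in BcorWT. These are not scaled for depth, and BcorWT replicate 1 was the shallowest library. The 3′ tags lie outside the deleted exons and do not check the labels. In bulk libraries such as these, fewer cells of a type and less RNA per cell cannot be told apart.

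To ask how the core-binding factor is composed in KL cells, the levels were first set in order. Quant-seq makes about one tag per transcript, so CPM were compared between genes without division by length. *Runx3* was the most abundant member with a mean of 108 CPM over the 4 libraries, followed by *Cbfb* at 94.6, *Runx1* at 72.8, *Cbfa2t3* at 44.6, *Runx2* at 21.9 and *Cbfa2t2* at 6.60 CPM. In the ranking of all genes in the table these stood at percentiles 89.2, 87.3, 83.1, 72.2, 53.6 and 23.8. The ranges of *Runx3* and *Cbfb* over the libraries overlapped and *Runx3* was the higher in 3 of the 4 libraries, so the order of those neighbours is not settled. For each of the other 4 pairs of neighbours the ranges did not overlap and the order was the same in 4 of 4 libraries.

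**Figure D1:**
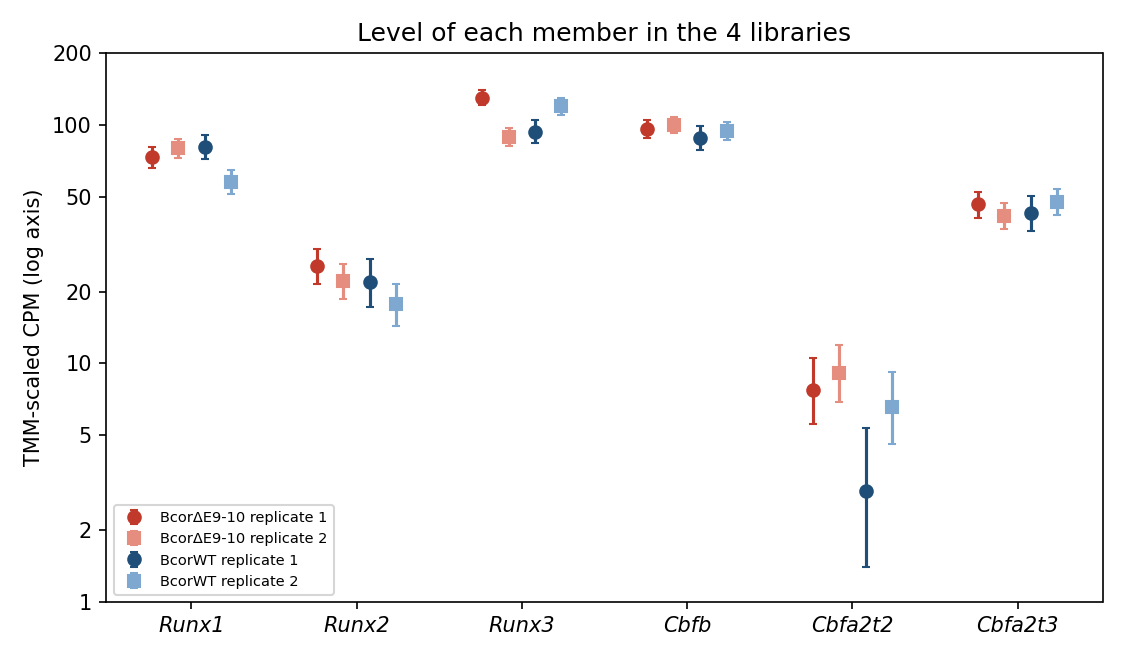
Level of each member in TMM-scaled CPM (log axis) in the 4 libraries, with 95% exact Poisson intervals that cover counting error only. *Runx3* and *Cbfb* lie near the top and *Cbfa2t2* at the bottom, between 2.92 and 9.13 CPM, and no gene has its red points far from its blue points except *Cbfa2t2*, whose BcorWT replicate 1 stands alone.

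None of the 6 members passed the test between genotypes. At an adjusted p under 0.05 in edgeR's quasi-likelihood test 0 of 6 were called, where 0.0166% of all genes were (2 genes), and 0 of 6 had an unadjusted p under 0.05, where 4.42% of all genes had. Both limma-voom and DESeq2 also called 0 of 6, with 0.0331 and 0.356% of all genes called. Among the members 5 had a level that was nominally higher in BcorΔE9-10 and 1 lower, with a median log2 fold change of 0.12 beside -0.03 over all genes. The CPM of the groups did not overlap for 3 of 6 members, beside 33.9% of all genes, and all 3 were higher in BcorΔE9-10, beside 16.8% of all genes. With simulated counts at this depth and group size edgeR recovered 95.5% of genes changed by 3 on the log2 scale but 34.4% of those changed by 1.5, so changes of the latter size would mostly be missed.

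*Runx1*, the founding RUNX factor of definitive haematopoiesis, lies on chromosome 16 (ENSMUSG00000022952, minus strand, 92601466 to 92826149, GRCm38) and is annotated with 7 transcripts in GENCODE M21. It had 396 and 489 counts in BcorΔE9-10 replicates 1 and 2 and 277 and 306 counts in BcorWT replicates 1 and 2. These correspond to 73.2 and 79.7 CPM against 80.9 and 57.6 CPM. BcorWT replicate 2 was the lowest library and BcorWT replicate 1 the highest, so the groups overlapped. The means were 76.5 ± 4.61 CPM (SD, n = 2) in BcorΔE9-10 and 69.2 ± 16.5 CPM in BcorWT. The log2 fold change was 0.14 (standard error 0.33, 95% interval -0.61 to 0.90, edgeR adjusted p = 0.974). The difference between the BcorWT replicates, 0.49 on the log2 scale, was larger than that between the genotypes, and without BcorWT replicate 2 the log2 fold change was -0.08.

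*Runx2*, best known as the master factor of bone formation and also used by plasmacytoid dendritic cells, lies on chromosome 17 (ENSMUSG00000039153, minus strand, 44495987 to 44814797). It had 139 and 136 counts in BcorΔE9-10 and 75 and 94 counts in BcorWT, or 25.7 and 22.2 CPM against 21.9 and 17.7 CPM. The groups did not overlap, but the gap was narrow, since BcorΔE9-10 replicate 2 and BcorWT replicate 1 lay within each other's counting intervals (18.6 to 26.2 and 17.2 to 27.5 CPM). The log2 fold change was 0.28 (standard error 0.34, 95% interval -0.52 to 1.07, edgeR adjusted p = 0.954). *Sp7*, *Bglap* and *Ibsp*, markers of osteoblasts, had no row in the table. Of 9 markers of plasmacytoid dendritic cells 7 had no row, *Siglech* and *Ccr9* among them, while *Irf8* and *Bst2*, which other blood cells also express, summed to 258 and 204 CPM in BcorΔE9-10 and 298 and 350 CPM in BcorWT. The opposite strand of the *Runx2* span holds *Runx2os1*, with 11 and 14 counts against 8 and 21, and part of *Supt3*, with 136 and 171 counts against 66 and 181. The sources used here do not give the strand setting of the counting, so reads from overlapping genes cannot be told apart, although *Runx2os1* lies 240 kb and the nearest base of *Supt3* 281 kb from the 3′ end of *Runx2*.

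*Runx3*, which directs the choice of cytotoxic T cells, lies on chromosome 4 (ENSMUSG00000070691, plus strand, 135120652 to 135177990). It had 703 and 545 counts in BcorΔE9-10 and 321 and 635 counts in BcorWT, or 129.9 and 88.8 CPM against 93.7 and 119 CPM. One library of each genotype was thus high and one low. The means were 109 ± 29.1 CPM and 107 ± 18.2 CPM (SD, n = 2). The log2 fold change was 0.04 (standard error 0.34, 95% interval -0.76 to 0.83, edgeR adjusted p = 0.994). Its sign changed when a library was left out, to -0.26 without BcorΔE9-10 replicate 1 and to -0.13 without BcorWT replicate 1.

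*Cbfb*, which encodes the common β subunit, lies on chromosome 8 (ENSMUSG00000031885, plus strand, 105170674 to 105217989). It had 521 and 612 counts in BcorΔE9-10 and 301 and 501 counts in BcorWT, or 96.3 and 99.8 CPM against 87.9 and 94.3 CPM. It was the steadiest member, with the highest library 1.13 times the lowest. Both BcorΔE9-10 libraries lay above both BcorWT libraries, yet the log2 fold change was only 0.11 (standard error 0.30, 95% interval -0.59 to 0.80, edgeR adjusted p = 0.976). The interval corresponds to between 0.663 and 1.75 times the BcorWT level.

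*Cbfa2t3*, also called ETO2 or MTG16, is the ETO protein of the TAL1 complex in erythroid and megakaryocytic progenitors. It lies on chromosome 8 (ENSMUSG00000006362, minus strand, 122625141 to 122699109) and had 251 and 255 counts in BcorΔE9-10 and 146 and 253 counts in BcorWT. Its CPM were 46.4 and 41.6 against 42.6 and 47.6, and BcorWT replicate 1 lay between the BcorΔE9-10 libraries, so the groups overlapped. The log2 fold change of -0.04 (standard error 0.31, 95% interval -0.75 to 0.67, edgeR adjusted p = 0.994) was, with that of *Runx3*, the nearest to 0, and it became 0.04 without BcorΔE9-10 replicate 2 or without BcorWT replicate 2. The gene model *Gm20388*, on the opposite strand, spans the whole of *Cbfa2t3* including its 3′ end and had 179 and 317 counts against 179 and 144.

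*Cbfa2t2*, also called MTGR1, encodes the ETO family member known in stem and germ cells as a partner of PRDM14. It lies on chromosome 2 (ENSMUSG00000038533, plus strand, 154436481 to 154539356). It had 42 and 56 counts in BcorΔE9-10 against 10 and 35 counts in BcorWT, that is 7.76 and 9.13 CPM against 2.92 and 6.59 CPM. Both BcorΔE9-10 libraries were above both BcorWT libraries, and BcorWT replicate 1, the shallowest library, was far below the others. Its log2 fold change of 0.80 was the largest of the members (standard error 0.56, 95% interval -0.49 to 2.09, edgeR adjusted p = 0.945). That interval runs from 0.711 to 4.26 times the BcorWT level, so it holds no change as well as a marked rise. The value rested on BcorWT replicate 1: without it the log2 fold change was 0.36, whereas without BcorWT replicate 2 it was 1.52 (edgeR unadjusted p = 0.0319, the only member under 0.05 in any alternative). The 95% Poisson interval of the 10 counts, 4.80 to 18.4, shows how little the lowest library fixes. The BcorWT replicates themselves differed 2.26-fold.

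**Figure D2:**
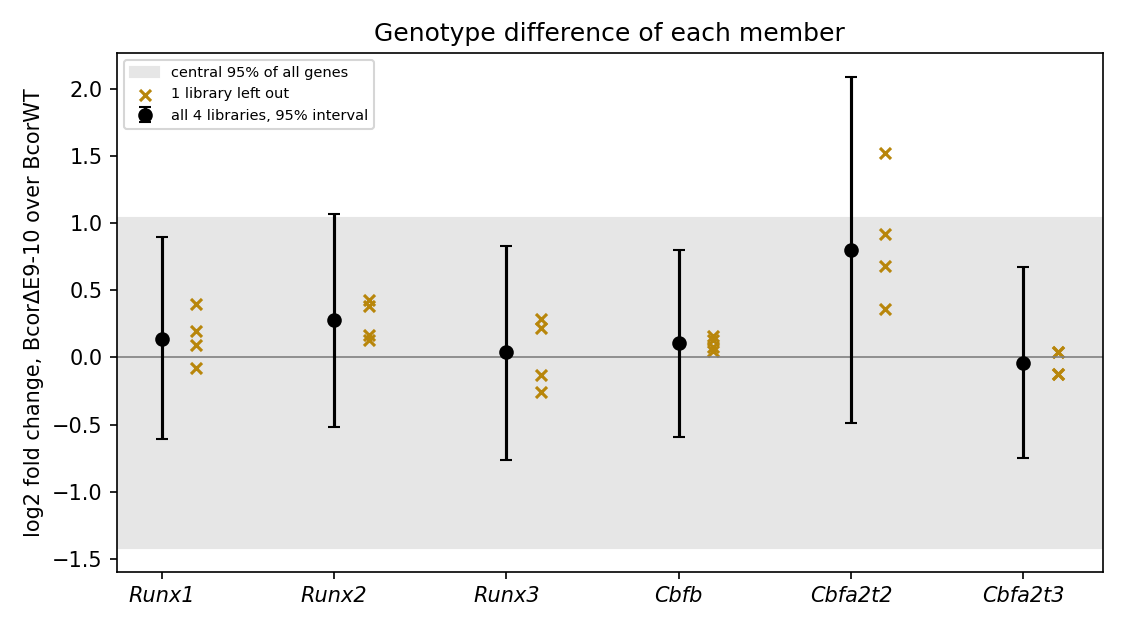
Log2 fold change of each member, BcorΔE9-10 over BcorWT, from edgeR with its 95% interval (black), and the values when each library is left out in turn (crosses). The grey band from -1.42 to 1.04 holds the central 95% of all genes. All 6 intervals include 0, and the crosses of *Runx1*, *Runx3* and *Cbfa2t3* fall on both sides of it.

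Shares within a family do not depend on scaling between libraries. *Runx3* supplied 56.8 and 46.6% of all Runx counts in BcorΔE9-10 and 47.7 and 61.4% in BcorWT. *Runx1* supplied 32.0 and 41.8% against 41.2 and 29.6%. *Runx2* made up the rest, at 11.2 and 11.6% against 11.1 and 9.08%. By genotype, the mean share of *Runx3* was 51.7 ± 7.22% (SD, n = 2) in BcorΔE9-10 and 54.5 ± 9.66% in BcorWT, with an exact two-sided permutation p of 0.667. With 2 libraries against 2 such a test cannot go below 0.33. For the ETO pair, *Cbfa2t2* supplied 14.3 and 18.0% of counts in BcorΔE9-10 and 6.41 and 12.2% in BcorWT, a mean difference of 6.89 percentage points (exact permutation p = 0.33). The difference was 4.02 percentage points without BcorWT replicate 1 and 9.76 without BcorWT replicate 2. The Wilson intervals (95%) of BcorΔE9-10 replicate 1, 10.8 to 18.8%, and BcorWT replicate 2, 8.87 to 16.4%, overlapped.

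**Figure D3:**
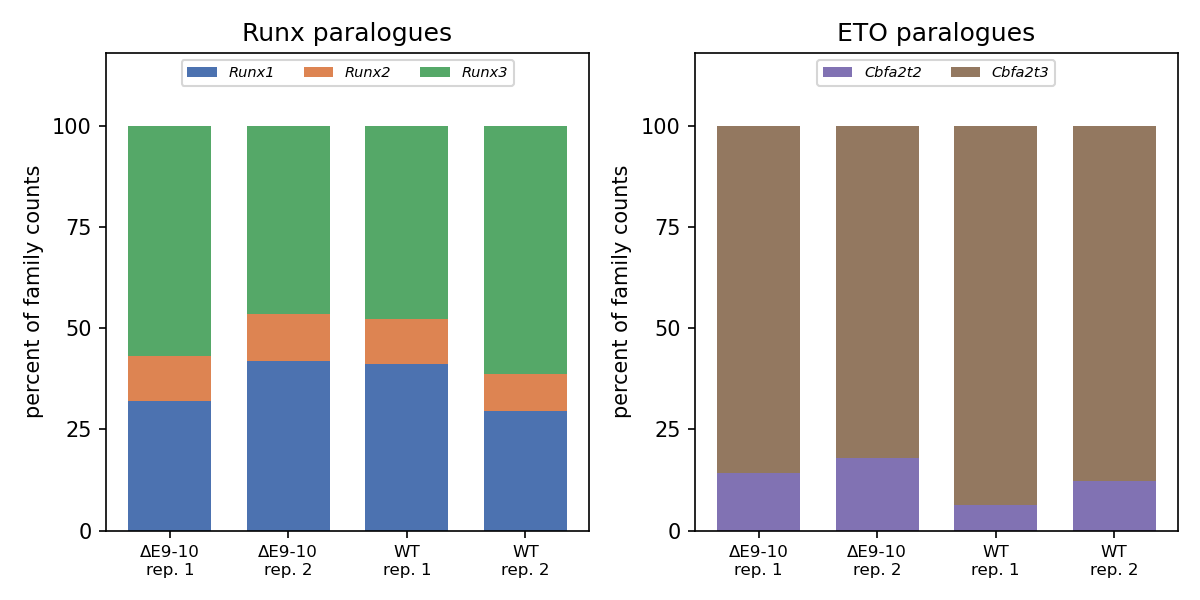
Percent of the summed Runx counts (left) and of the summed ETO counts (right) that come from each paralogue in each of the 4 libraries. *Runx3* holds between 46.6 and 61.4% of Runx counts and *Cbfa2t3* between 82.0 and 93.6% of ETO counts.

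The balance of *Runx3* to *Runx1* differed more between replicates than between genotypes. There were 1.78 *Runx3* counts per *Runx1* count in BcorΔE9-10 replicate 1 (95% interval 1.57 to 2.01) and 1.11 in replicate 2 (0.987 to 1.26). In BcorWT the ratio was 1.16 in replicate 1 (0.987 to 1.36) and 2.08 in replicate 2 (1.81 to 2.38). The intervals cover counting error only, and those of the replicates did not overlap in either genotype. By genotype the ratios were 1.44 ± 0.467 and 1.62 ± 0.648 (SD, n = 2), with an exact permutation p of 0.667. The summed level of the 5 T and NK cell markers in the table was 154 and 136 CPM in BcorΔE9-10 and 144 and 263 CPM in BcorWT, nearly all of it *Nkg7*, and its part in the ratio was not tested. The summed Runx counts per *Cbfb* count varied less, at 2.38 and 1.91 in BcorΔE9-10 and 2.24 and 2.07 in BcorWT. Their means were 2.14 ± 0.328 and 2.15 ± 0.120 (SD, n = 2, exact permutation p = 1). The 2 measured ETO genes together gave 0.237 and 0.266 counts per Runx count in BcorΔE9-10 and 0.232 and 0.278 in BcorWT.

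**Figure D4:**
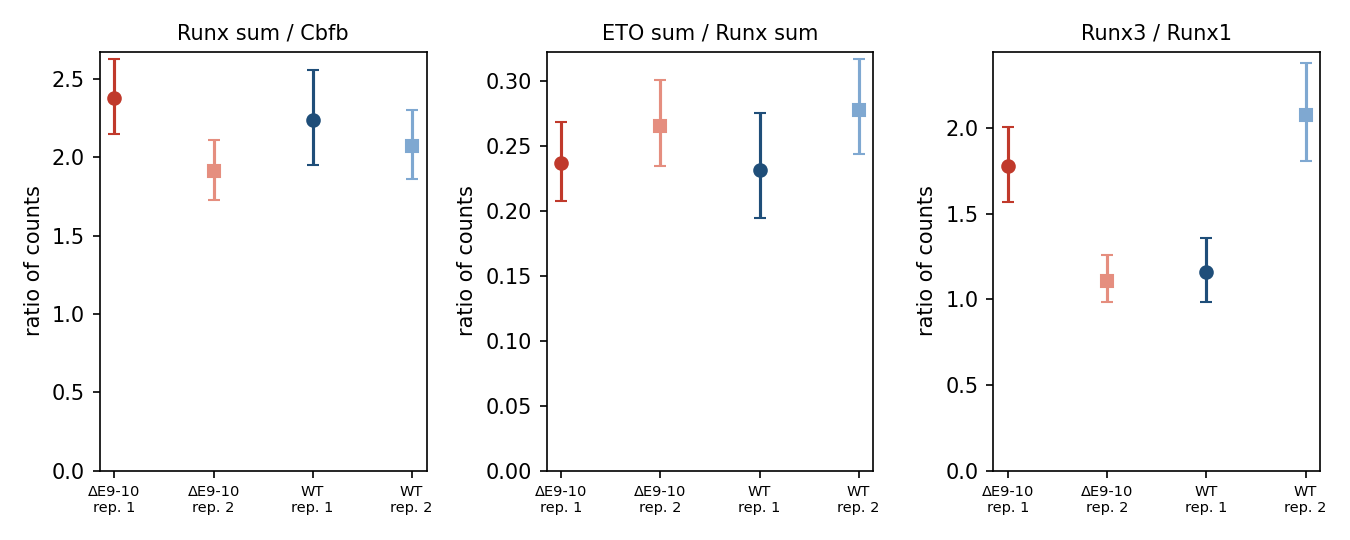
Ratios of raw counts within each library with 95% Wilson-based intervals that cover counting error only. The summed Runx to *Cbfb* ratio stays between 1.91 and 2.38, whereas the *Runx3* to *Runx1* ratio falls into high libraries (1.78 and 2.08) and low libraries (1.11 and 1.16), each holding one of each genotype.

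Promoters of the members were read for the RUNX core motif, spelled TGTGGT or TGCGGT on either strand, in RefSeq windows of 250 bases before to 50 bases after a start site (GRCm38.p6). The table held 9 windows for the 6 measured members. The motif was in 4 of the 9, and in 22.4% of the 32851 windows of all genes. The first windows of *Runx1*, *Runx2* and *Runx3*, which for *Runx1* and *Runx3* belong to the more distal of 2 start sites, each held a pair of TGTGGT matches on the opposite strand whose first bases lie 8 bases apart. Such a pair was in 7 of the 32851 windows (0.0213%). They are shown, with *Cbfa2t3*, the only other member with a match in its windows, as 30 bases in the direction of transcription with each match in capitals:
Runx1: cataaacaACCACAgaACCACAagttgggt
Runx2: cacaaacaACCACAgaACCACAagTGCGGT
Runx3: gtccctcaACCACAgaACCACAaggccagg
Cbfa2t3: cgacccccACCGCAttatcactgtgacaca
These lie at chr16:92826025-92826054 (minus strand), chr17:44814583-44814612 (minus strand), chr4:135120503-135120532 (plus strand) and chr8:122699212-122699241 (minus strand). The 14 bases ACCACAGAACCACA that the Runx windows share occurred, on either strand, in 4 of the 32851 windows, those of *Runx1*, *Runx2*, *Runx3* and *Gm16225*, a lincRNA that starts on the opposite strand beside the distal start of *Runx3*, so that its window covers the same bases. *Runx2* held 4 matches in all, one of them 80 bases before its start site and outside the bases shown. The pair was noticed in these sequences and then counted. In the windows of *Runx1* and *Runx2* it lies after the start site, from base 28 and from base 23 with the start site as 0, and in that of *Runx3* 134 bases before it. The windows with a pair had few CpG dinucleotides in *Runx1* and *Runx2* (2 each) and 8 in *Runx3*. The proximal windows of *Runx1* and *Runx3* had no match and held 35 and 45 CpG, against a median of 7 over all windows. The windows of *Cbfb* and *Cbfa2t2* held 30 and 51 CpG and no match. Counts from 3′ ends add up the transcripts of all start sites, so these data do not divide *Runx1* or *Runx3* between them.

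To see whether 3′ tags could be shared with near-identical genes, the ends of the members were aligned to all annotated transcripts. The last 1000 bases of their coding transcripts had no alignment of 50 or more bases at 95% identity to another member. Among all other genes *Runx1* matched *Gm26626*, which lies on its opposite strand, and *Cbfa2t2* matched its pseudogene *Cbfa2t2-ps1*, and neither of the matched genes had a row in the table.

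The partners and targets of these factors were then read from 5 lists, compiled from general knowledge of RUNX and ETO biology. Of 92 gene symbols 77 were in the table. The lists hold one gene under both its older symbol *Aes*, which was in the table, and its newer symbol *Tle5*, which was not. At an adjusted p under 0.05 in edgeR 0 of 77 were called, and at an unadjusted p under 0.05 there were 3, 2 of them higher and 1 lower in BcorΔE9-10, beside 1.34 and 3.07% of all genes. The count of 3 fell when either BcorΔE9-10 library was left out and rose when either BcorWT library was. Such fits leave 1 library in a group, and the number of genes called over the whole table also moved in them. The share of all genes with an unadjusted p under 0.05 in those fits is not given here. The shifts are therefore not read as a result about the partners. limma-voom and DESeq2 also called 0 of 77. The median log2 fold change of the 77 was -0.02.

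Factors of the DNA-bound complexes in which RUNX takes part, adaptors such as *Ldb1* included, comprised 20 genes, all in the table. Their median log2 fold change was 0.10 and 12 of 20 were nominally higher, beside 47.7% of all genes. *Tal1*, the basic helix-loop-helix factor that recruits ETO proteins in erythroid and stem cells, had 160 and 133 counts in BcorΔE9-10 against 47 and 56 in BcorWT. Both BcorΔE9-10 libraries were above both BcorWT libraries, with a log2 fold change of 1.08 (standard error 0.38), but the edgeR adjusted p was 0.945. The summed erythroid markers given above moved with it, and their part in the value was not tested. *Gfi1*, which encodes a transcriptional repressor needed for granulocyte development, stood at 246 and 211 CPM against 178 and 137 CPM. It did not overlap between groups and had a log2 fold change of 0.54 (standard error 0.32, edgeR adjusted p = 0.945). *Spi1* and *Cebpa*, which encode PU.1 and C/EBPα and are both under RUNX1 control, were high in a single library. *Spi1* had 171.5 and 163.8 CPM in BcorΔE9-10 and 153.9 and 400 CPM in BcorWT, and *Cebpa* had 196 and 121 CPM against 159 and 345 CPM. BcorWT replicate 2 was the high library for both. The log2 fold change of *Spi1* was -0.73 (standard error 0.46, edgeR adjusted p = 0.945), and without BcorWT replicate 1 it was -1.26 with an edgeR adjusted p of 0.0342, a setting in which 4.94% of all genes were called. In the same library the summed level of 6 monocyte markers was 1600 CPM, against 789 CPM in BcorWT replicate 1 and 641 and 664 CPM in BcorΔE9-10. The part of this sum in these values was not tested. *Ly6c2* carried most of that sum, with 1360 CPM in BcorWT replicate 2 against 429 to 550 CPM, and *Csf1r* and, by a small margin, *F13a1* (62.9 against 51.3 to 60.1 CPM) were also highest there. *Ccr2*, *Ms4a6c* and *Cx3cr1* were not, at 13.7, 90.3 and 19.8 CPM against highest values of 17.1, 106 and 23.9 CPM in other libraries. *Tcf3* and *Ldb1*, an E protein and the scaffold of the TAL1 complex, had log2 fold changes of -0.43 and -0.12.

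Among genes of ETO corepressor complexes, 22 of 23 were in the table with a median log2 fold change of 0.06. *Ncor1* was level across libraries, at 238 and 243 CPM in BcorΔE9-10 against 260 and 227 CPM in BcorWT. *Hdac3*, a histone deacetylase that acts with NCOR1, had 22.7 and 27.1 CPM against 38.8 and 27.3 CPM. Its groups did not overlap, but replicate 2 was nearly equal in both genotypes, and its log2 fold change was -0.40 (standard error 0.34). RUNX activators and modifying enzymes, 17 of 20 in the table, had a median of 0.08 and 0 genes with an unadjusted p under 0.05 in edgeR. Groucho proteins, which bind the carboxyl end of RUNX proteins, and other corepressors and enzymes were represented by 15 of 17 symbols with a median of -0.16. Of these 4 were nominally higher and 11 lower, again with 0 under 0.05. Over all genes 47.7% were nominally higher and 4.42% had an unadjusted p under 0.05 in edgeR, so 0 in lists this short is near that share.

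Of 27 genes known to be bound and controlled by RUNX1 in blood cells, 18 were in the table. Their median log2 fold change was -0.36, with 5 nominally higher and 13 lower, beside -0.03 over all genes, of which 47.7% were nominally higher, and 0 passed the edgeR test. The CPM of the groups did not overlap for 7 of the 18, beside 33.9% of all genes. *Csf1r*, *Pf4*, *Nfe2*, *Cd34* and *Ccnd2* were lower in both BcorΔE9-10 libraries than in both BcorWT libraries, and *Gfi1* and *Cdkn1a* were higher. For *Spi1*, *Elane* and *Itga2b*, in contrast, BcorWT replicate 1 lay below both BcorΔE9-10 libraries. Their lower value in BcorΔE9-10 came from BcorWT replicate 2 alone. *Nfe2*, *Cd34*, *Ccnd2*, *Elane* and *Itga2b* were named after their values were seen. *Elane*, neutrophil elastase, had 904 and 732 CPM against 656 and 2140 CPM, and *Itga2b*, the megakaryocyte integrin, had 32.0 and 17.1 CPM against 16.1 and 47.6 CPM. *Pf4*, platelet factor 4 of megakaryocytes, had 14.8 and 12.4 CPM in BcorΔE9-10 against 23.4 and 30.1 CPM in BcorWT, a log2 fold change of -0.98 (standard error 0.36, edgeR adjusted p = 0.945). *Cdkn1a*, which encodes the cell cycle inhibitor p21, went the other way with 33.5 and 23.8 CPM against 14.0 and 14.9 CPM, a log2 fold change of 0.98 (standard error 0.36, edgeR adjusted p = 0.945). The summed level of the 5 megakaryocyte markers in the table, *Pf4* among them, was 110 and 142 CPM in BcorΔE9-10 and 113 and 266 CPM in BcorWT, and its part in the value of *Pf4* was not tested. *Gp1bb* carried most of the sum, with 187 CPM in BcorWT replicate 2, whereas *Vwf* and *Gp5* were lowest in that library, at 0.753 and 0.376 CPM. *Csf1r*, the receptor for macrophage colony-stimulating factor, had 28.3 and 27.7 CPM against 35.6 and 53.3 CPM, a log2 fold change of -0.67 (standard error 0.34). *Mpo*, myeloperoxidase of the primary granules, was at 6888.5 and 4284 CPM against 6692 and 5331 CPM, so the BcorWT libraries lay inside the range of the BcorΔE9-10 libraries.

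**Figure D5:**
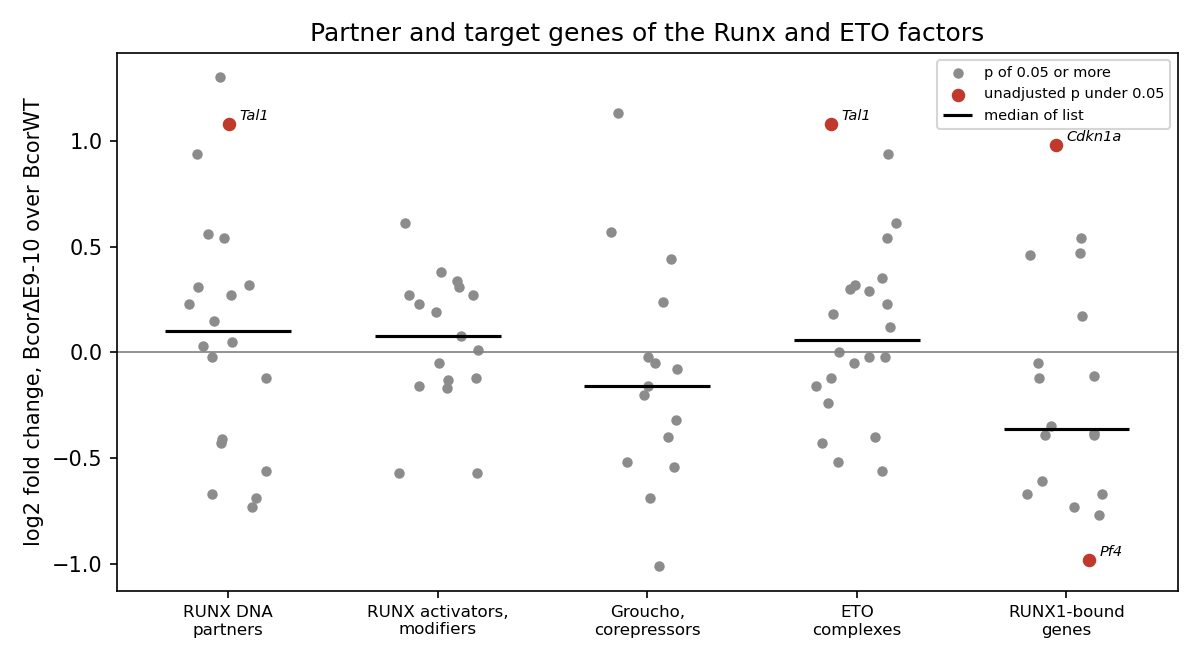
Log2 fold change (BcorΔE9-10 over BcorWT) of each gene in the 5 lists of partners and targets, where red points have an unadjusted p under 0.05 in edgeR and black lines are list medians. Medians lie between -0.36 and 0.10, and *Tal1*, *Cdkn1a* and *Pf4* are the genes in red, with *Tal1* in more than one list.

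Finally, the genes whose level moved most like each member across the 4 libraries were found by the root mean square difference of centred log2 CPM. They were *Pcbp1*, *Rnf44* and *Dtymk* for *Runx1* (differences of 0.010 to 0.019), *Abcc4*, *Zfp277* and *Atp1b3* for *Runx2* (0.020 to 0.025) and *Gm37390*, *Rpl38-ps1* and *Rpl3-ps1* for *Runx3* (0.020 to 0.027). They were *Dyrk1a* and *Cep41* for *Cbfb* (0.011 and 0.016), *Rnf170*, *Trmt2a* and *Ints7* for *Cbfa2t3* (0.012 to 0.016) and *P2ry1*, *Alg13* and *1110002L01Rik* for *Cbfa2t2* (0.077 to 0.086). With 4 libraries such matches are common. Within a difference of 0.1 there were 338 genes for *Runx1*, 327 for *Runx2*, 126 for *Runx3*, 377 for *Cbfb* and 405 for *Cbfa2t3*, but only 6 for *Cbfa2t2*, the member with the fewest counts.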

How the data were processed

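Quant-seq reads of 4 libraries were filtered on quality by the authors, cutadapt trimmed their 5′ ends and the poly-A sequence at their 3′ ends, HISAT2 placed them on mm10, and they were counted per gene with featureCounts of subread. The deposited values are these counts, not normalized. In BcorΔE9-10 replicate 2 and BcorWT replicate 1 the deposited values were taken as estimated counts, since the single gene *Gm4430* has values that are not whole there, and all were rounded. Before TMM scaling, every gene in the table had 2.08 CPM or more in at least 2 libraries. The filter behind this is not given in the sources used here. From the counts, edgeR 4.0.16 in R 4.3.3 was run with filterByExpr (0 genes removed), TMM scaling, a quasi-likelihood F test, a prior count of 0.125 and Benjamini-Hochberg adjustment over 12067 genes. The standard error is the log2 fold change divided by the square root of F, and 95% intervals use its degrees of freedom. Shares carry 95% Wilson intervals. Reads carried no stated molecular identifiers, and so counting error is all that these intervals and the Poisson intervals cover. The fit was tested on simulated counts. Positions came from GENCODE M21 (GRCm38), promoters from RefSeq (GRCm38.p6), and 3′ ends were aligned with blastn 2.17.0. Alternatives were DESeq2 1.42.0, limma-voom (limma 3.58.1), other scaling and filters, a prior count of 2, the replicate number as a block and each library left out. The members, lists and tests were chosen with earlier results of these data known. Genes were named as all members, 11 set partner genes, list genes with an unadjusted p under 0.05 and no overlap, and the 3 genes most like each member, of which 2 genes are not reported here. No library was left out.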

Additional observations from a re-analysis of the deposited data

How the results depend on the processing

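No member passed an adjusted p of 0.05 in the edgeR fit reported or in any of its 12 alternatives (edgeR, limma-voom or DESeq2), where adjusted p ran from 0.391 to 1. Of these 72 values 67 kept their direction, and the 5 that did not all came from leaving out 1 library. The log2 fold change ranged from -0.08 to 0.40 for *Runx1*, 0.13 to 0.43 for *Runx2*, -0.26 to 0.29 for *Runx3*, 0.05 to 0.16 for *Cbfb*, 0.36 to 1.52 for *Cbfa2t2* and -0.12 to 0.04 for *Cbfa2t3*. The reversed values were -0.08 for *Runx1* without BcorWT replicate 2, -0.26 and -0.13 for *Runx3* without BcorΔE9-10 replicate 1 and without BcorWT replicate 1, and 0.04 for *Cbfa2t3* without either replicate 2. The cause was not tested. Among all genes 2 were called, against 5 with at least 10 counts in every library, 4 with limma-voom and 43 with DESeq2. With 1 library left out, the lone library being assumed to vary like the other group, the count ranged from 6 to 596, and the 596 without BcorWT replicate 1 (4.94% of genes) included 0 members. The count for partner genes then ranged from 0 to 2, the 2 being *Spi1* (log2 fold change -1.26, edgeR adjusted p = 0.0342) and *Elane* (-1.39, 0.0489), the latter named after its values were seen. By list, it was 1 for the RUNX DNA partners and 2 for the genes bound by RUNX1 without BcorWT replicate 1, and 0 without any other library. The replicate number as a block gave 14 genes over the whole table and 0 members. Deviations of same-numbered libraries had a correlation of -0.0945, and the labels do not say that the numbers mark pairs. Depth limits *Cbfa2t2* most, with 10 counts in its lowest library.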
